A study of Cocos nucifera with 22 samples.

Results

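In coconut leaves exposed to salt, 15 genes outside the named signalling pathways carried a transcription factor or zinc finger name. In the dwarf variety 8 of them (53.3%) passed the test between 4 h and 6 days of treatment. Genes as a whole were also called most often in that comparison (36.1%). The 15 were listed through their expression level, while that share covers all genes past a filter on low counts, so the 2 shares are not matched for level. At each time against 0 h, 1 or 2 of the 15 passed. The genes were taken from 738 entries of the study's list of differentially or highly expressed genes. A rule on product names chose them: a word such as transcription factor, zinc finger, homeobox, NAC domain or ethylene-responsive, with no pathway entry. The clock, CONSTANS-like, GHD7 and heat stress factors were left out. A further 43 entries of that list could not be read here, so genes that fit the rule may be missing. All 15 were found among the 25247 genes listed in at least 1 library, and all 15 were among the 18840 genes that passed the filter on low counts. The name rule gathers proteins of different kinds: 10 belong to DNA-binding families (bHLH, AP2/ERF, NAC and homeobox), and 5 are zinc finger proteins whose names do not mark them as transcription factors (a pair of FCS-like zinc finger 3 genes, VAR3, and the CCCH proteins 49-like and 53).

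Leaf RNA came from greenhouse seedlings of Hainan tall and Aromatic dwarf coconut, sampled before (0 h) and, once 200 mM NaCl had been given, after 4 h, after 6 days and again after 10 days. Irrigation with the salt solution was weekly per the study's methods, so the 10 days samples may follow more applications than the earlier ones. Each variety had 3 libraries per time but 2 at the last, 22 in all, and replicate numbers marked leaves that were sampled again at each time. No unsalted leaf was taken after 0 h, so salt, the number of its applications, hour of day, elapsed time and growth conditions cannot be told apart in any later sample. The replicates of a variety were separate seedlings per the study's methods. The p-values measure a spread within groups that was pooled over both varieties, not that of the dwarf alone. The main fit did not pair samples of the same leaf. Libraries held 2977359 to 3445467 expected counts, and their precision is that of this depth and of 2 or 3 libraries per group.

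The 16 leaf markers (chlorophyll a-b binding proteins and the small subunit of rubisco) were taken from the same list of differentially or highly expressed genes. All were above 0 in every library, with 3.27 to 11.3% of the summed FPKM. Since that list was built on expression level in these data, their presence is no independent check of the tissue. Their share varied with time in the dwarf: 6.07 to 7.31% at 0 h, 3.27 to 4.35% at 4 h, 8.52 to 11.1% at 6 days and 8.01 to 8.73% at 10 days. The part of this shift in the results on the 15 genes was not tested. Because these are bulk leaves, fewer cells of a type and less RNA per cell cannot be told apart.

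Plant transcription factors act in families that share a DNA-binding fold. bHLH proteins such as the PIF group link light to growth, AP2/ERF proteins carry ethylene and stress signals, NAC proteins act in leaf ageing and stress, and homeodomain proteins of the HD-Zip and BELL types act in development and, for some HD-Zip members, in the answer to water deficit. Zinc fingers are more varied: CCCH fingers often contact RNA, FCS-like fingers in Arabidopsis are adaptors of the SnRK1 energy-sensing kinase, and VAR3 of Arabidopsis is a chloroplast protein needed for normal leaf tissue.

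The list was built on the tall libraries. Genes were selected on their tall FPKM (read fragments scaled to coding length and to library size), through a 2-fold change from 0 h at a probability of 0.8 or more together with a level criterion of 100 FPKM, or through a level above 350 FPKM without such a change. A gene chosen by level need not have held 350 FPKM at every time. Tall values are therefore given as a description, and tests were made only between times in the dwarf. The tall libraries still entered the same fit, through its estimate of spread and its flow cell term. The dwarf p-values are thus not independent of the libraries that chose the genes. With the dwarf libraries alone, edgeR called 5 of the 15 higher and 2 lower at 6 days against 4 h. Close to the criterion of 100 FPKM lay VAR3, with a tall mean of 123 FPKM at 4 h. UNE10 had a tall mean of 114 FPKM at 6 days, but 158 FPKM at 10 days. CCCH 53, chosen as lower, had a tall mean of 82.0 FPKM at 6 days. Near 350 FPKM lay HOX20 and NAC83, with tall means of 369 and 372 FPKM at 0 h. Genes just outside these limits cannot be given, since product names were at hand only for the list.

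Of the 15 models, 5, those of UNE10, both FCS-like zinc finger 3 genes and a pair of BEL1 pieces, are annotated as fragments, and the other 10 as complete. Coding lengths ran from 309 to 2175 bases. On assembly ASM812446v1, 13 of the genes lie on 9 chromosomes and 2, UNE10 and HOX20, on unanchored scaffolds. The complete genes lie at chr15:20175795-20179172 (ICE1, CN01_15G005730), chr8:32978693-32983572 (ERF1, CN01_08G003050), chr11:49337837-49338499 (ERF3, CN01_11G008300), chr15:19458866-19460741 (NAC83, CN01_15G005450) and chr7:17534533-17535804 (HOX6, CN01_07G006410), and at chr10:15451274-15456279 (BEL1, CN01_10G006090), chr3:62905715-62912763 (VAR3, CN01_03G010040), chr2:83007644-83009661 (CCCH 49-like, CN01_02G019120) and chr4:13807008-13811816 (CCCH 53, CN01_04G005050).

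In FPKM the median gene drifted between sampling times. Whether this drift is one of scaling was not tested. In the dwarf the median gene's log2 ratio of mean FPKM to 0 h was 0.03 at 4 h, -0.31 at 6 days and -0.35 at 10 days, and between 6 days and 4 h it was -0.34. The fitted changes below were made with TMM scaling, under which the median gene lay between -0.05 and 0.00, so a gene whose FPKM was lower by this drift alone has a fitted change near 0. In the tall the same median was -0.03, -0.34 and -0.29.

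**Figure D1:**
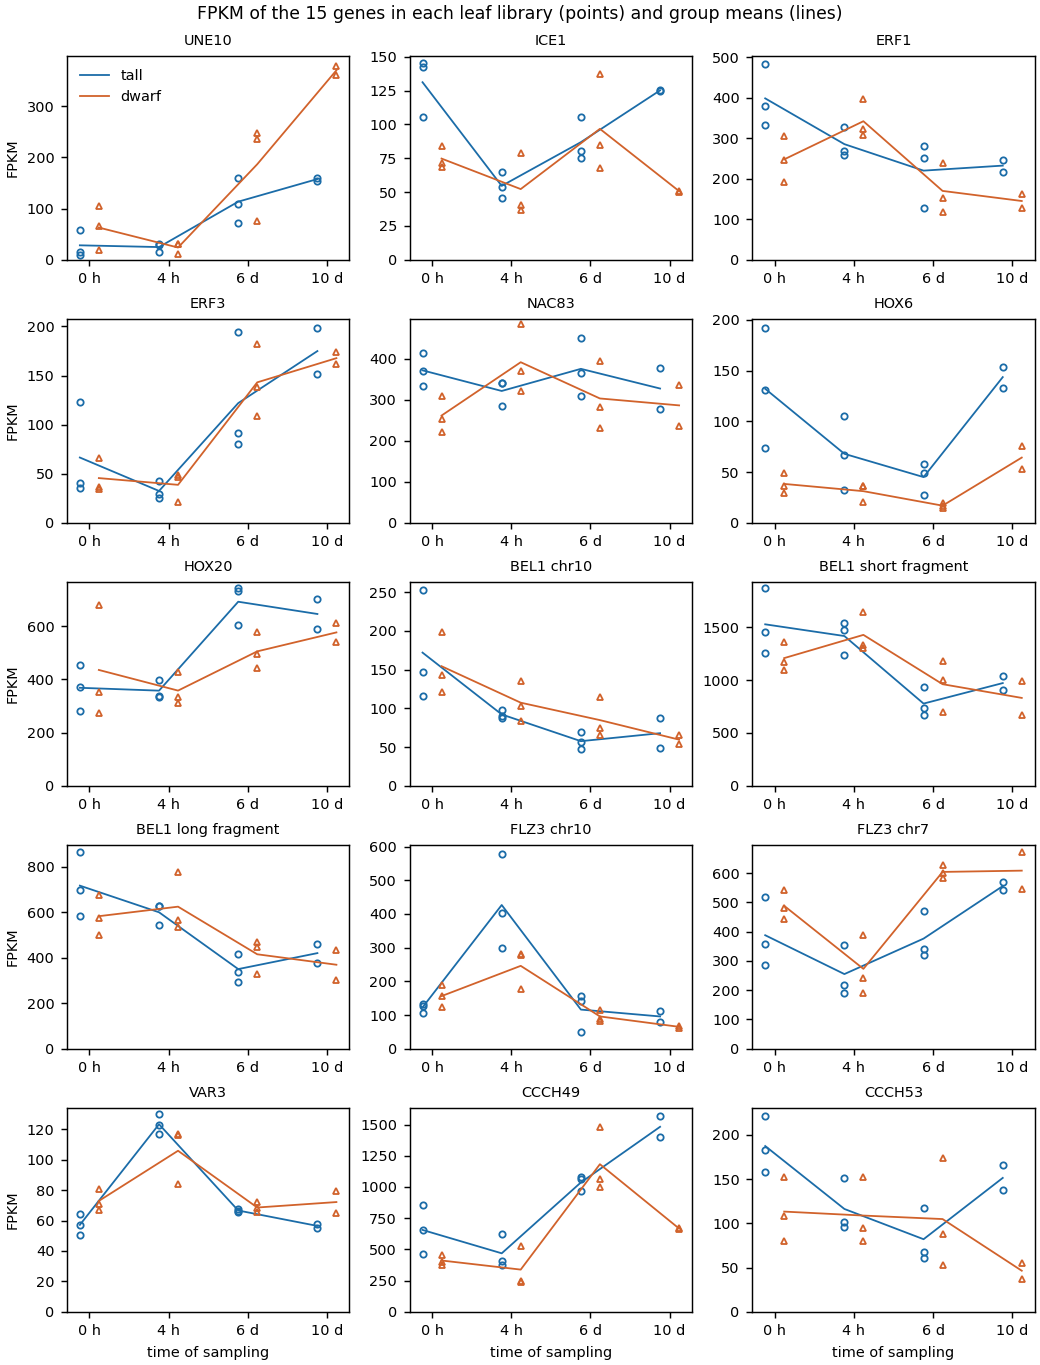
FPKM of the 15 genes (vertical axes, linear from 0) at the 4 sampling times (horizontal axes, not to scale), with 1 point per library and lines through the group means, for tall (circles) and dwarf (triangles). UNE10 and ERF3 sit highest at 10 days in both varieties by group mean, while FLZ3 chr10 and VAR3 peak at 4 h.

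At 4 h against 0 h in the dwarf, 1 of the 15 genes passed the test, and it was lower. Over all genes tested, 5.81% were called higher and 7.23% lower. The median fitted change of the 15 genes was -0.25 on the log2 scale, beside 0.00 for all genes. At 6 days against 0 h, 2 genes were called higher and none lower, beside 4.36% and 3.61% of all genes, with medians of 0.18 and -0.02. At 10 days against 0 h, 1 gene was called higher and none lower, beside 4.03% and 3.97% of all genes, with medians of 0.13 and -0.05. The shares called in either direction were 6.67%, 13.3% and 6.67% of the 15, near the 13.0%, 7.97% and 8.0% of all genes. Where edgeR called none in a direction, DESeq2 called 2 higher at 4 h and none lower at 6 days or 10 days, and at an unadjusted p under 0.05 edgeR had 3 higher at 4 h, 0 lower at 6 days and 2 lower at 10 days.

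Between 4 h and 6 days, with the same leaf numbers and a mixture of flow cells at both times, 6 of the 15 rose and 2 fell, beside 18.0% of all genes higher and 18.0% lower. The share called in either direction was 53.3% for the 15 and 36.1% for all genes. These shares are not matched for level. With a filter of 50 counts in all libraries of some group, 2682 of 11259 genes were called higher and 2686 lower. Under that filter the 15 again had 6 higher and 2 lower, so nothing is read from the difference between the shares. The median change of the 15 was -0.02, equal to that of all genes to this precision. On the FPKM scale, with its drift, limma on log2(FPKM + 1) called 5 of the 15 higher and 5 lower, beside 2067 higher and 6095 lower of all genes: VAR3 and both BEL1 fragments joined the lower calls and HOX20 was lost. The 6 that rose were UNE10, ICE1, ERF3, HOX20, FLZ3 chr7 and CCCH 49-like, and the 2 that fell were FLZ3 chr10 and ERF1. In all, 9 of the 15 were called in at least 1 of the 4 dwarf comparisons and 6 in none. The counts by edgeR at an adjusted p under 0.05 are shown gene by gene in the plot of fitted changes.

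**Figure D2:**
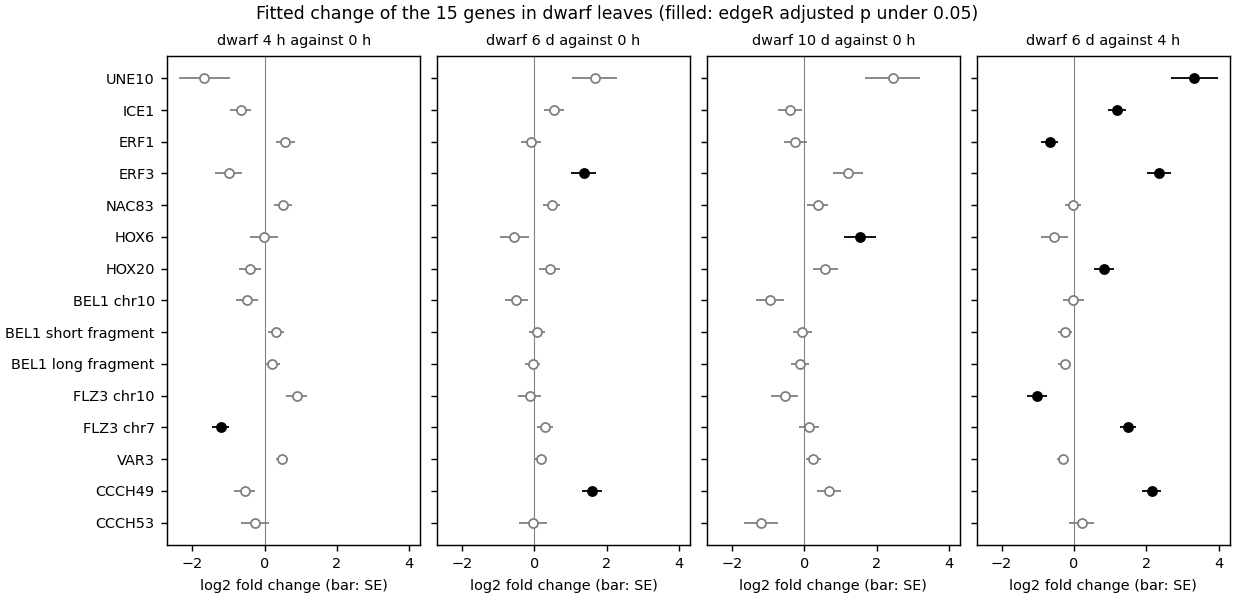
Fitted log2 fold change (horizontal axis) with its standard error (bars) for the 15 genes in 4 dwarf comparisons, filled where the edgeR adjusted p was under 0.05. The 6 days against 4 h panel holds 8 of the 12 filled points, led by UNE10 at 3.33.

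UNE10 (CN01_scaffold020783G000020), a bHLH protein whose Arabidopsis namesake belongs to the PIF group, had the widest range of the 15, with group means from 23.9 to 370 FPKM, a 15.5-fold span. In the dwarf its FPKM was 18.1, 105 and 65.1 at 0 h, 31.2, 10.7 and 29.9 at 4 h, 247, 236 and 76.3 at 6 days, and 379 and 361 at 10 days. The 4 h libraries lay below all 6 days and 10 days libraries, whereas the 0 h libraries, which spanned from 18.1 to 105, overlapped those of 4 h and 6 days. UNE10 rose from 4 h to 6 days by 3.33 on the log2 scale (SE 0.65), a 10.1-fold difference, with an edgeR adjusted p of 0.000776. Leaving out single libraries gave 2.71 (without dwarf 6 d replicate 1) to 3.82 (without dwarf 6 d replicate 3), and the call was kept in all of these fits. Against 0 h the fitted change was 2.45 (SE 0.75) at 10 days with an edgeR adjusted p of 0.0528, 1.66 (SE 0.62) at 6 days with 0.108 and -1.67 (SE 0.70) at 4 h with 0.128, none of which passed. Without a term for flow cell the first 2 of these passed, at adjusted p of 0.00583 and 0.0412 by edgeR. With single libraries left out, the UNE10 change against 0 h ran from 2.01 to 3.06 at 10 days, from 0.80 (without dwarf 6 d replicate 1) to 2.27 (without dwarf 0 h replicate 2) at 6 days, and from -2.17 to -1.06 at 4 h. In the tall UNE10 stood at 16.1, 58.8 and 9.76 FPKM at 0 h and at 161 and 155 FPKM at 10 days, with no overlap. The mean at 10 days was 158 FPKM in the tall and 370 FPKM in the dwarf, 2.35-fold apart, the largest separation in favour of the dwarf among the 15. Counts were as low as 14 in single libraries of the tall at 0 h and of the dwarf at 4 h, so the early levels are the least precise.

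ICE1, which in Arabidopsis induces cold-response genes and acts in the stomatal lineage, had dwarf values of 84.1, 68.8 and 71.5 FPKM at 0 h, 40.8, 79.2 and 36.7 at 4 h, 68.1, 84.7 and 137 at 6 days, and 51.1 and 50.3 at 10 days. At 4 h, 2 of the 3 libraries lay below every other dwarf library and the third among those of 0 h. From 4 h to 6 days ICE1 rose by 1.20 on the log2 scale (SE 0.25), with an edgeR adjusted p of 0.00119. At 4 h against 0 h the fitted change was -0.66 (SE 0.28) with an adjusted p of 0.13 by edgeR, and it depended on single libraries: without dwarf 4 h replicate 2, the high one, it was -0.98 with an adjusted p of 0.0149, and without dwarf 4 h replicate 3 it was -0.35 with an adjusted p of 0.583. In the tall, ICE1 stood at 145, 106 and 143 FPKM at 0 h and at 64.8, 45.3 and 53.7 FPKM at 4 h, with every 4 h library below every 0 h library. At 10 days the tall libraries read 125 and 125 FPKM, above the dwarf's pair by 2.47-fold.

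The ERF genes took opposite directions. ERF3 shares its name with a repressor of the AP2/ERF family known from tobacco and Arabidopsis. Its dwarf values were 34.5, 65.6 and 36.4 FPKM at 0 h, 46.4, 48.6 and 21.0 at 4 h, 138, 183 and 109 at 6 days, and 174 and 161 at 10 days. Every 6 days and 10 days library lay above every library of 0 h and 4 h. At 4 h against 0 h the fitted log2 change of ERF3 was -0.99 (SE 0.37; adjusted p = 0.0834 in edgeR). It passed without dwarf 6 d replicate 1 (edgeR adjusted p = 0.017) or 3 (0.0234). ERF3 rose at 6 days against 0 h by 1.37 on the log2 scale (SE 0.34; adjusted p = 0.0223 in edgeR) and against 4 h by 2.36 (SE 0.33; adjusted p = 4.41e-05 in edgeR).

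The call against 0 h was lost without dwarf 6 d replicate 1, the only dwarf 6 days library on the flow cell of the 0 h libraries, where ERF3 had a change of 0.70 with an edgeR adjusted p of 0.349, and without dwarf 0 h replicate 1 (0.0822) or 3 (0.076). It was also lost in the fit of dwarf libraries alone (1.64, edgeR adjusted p = 0.0516). At 10 days the fitted change of ERF3 was 1.21 (SE 0.41) with an adjusted p of 0.0728 by edgeR, and 2.18 with an adjusted p of 0.00657 without the flow cell term. ERF3 also passed at 10 days with DESeq2 (1.24, adjusted p = 0.0491) and without dwarf 0 h replicate 2 (1.59, edgeR adjusted p = 0.0236). All dwarf 0 h libraries were run on flow cell AV and both 10 days libraries on AW, so in that comparison the fit takes the flow cell's part from other groups. In the tall, ERF3 was 35.7, 123 and 40.7 FPKM at 0 h, 79.9, 91.6 and 194 at 6 days, and 199 and 151 at 10 days, the 0 h and 6 days libraries overlapping through replicate 2 of 0 h.

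ERF1, the other AP2/ERF gene, had dwarf values of 306, 191 and 246 FPKM at 0 h, 322, 307 and 396 at 4 h, 117, 153 and 239 at 6 days, and 128 and 162 at 10 days. The 4 h libraries were the highest and did not overlap with any later library. ERF1 fell from 4 h to 6 days by 0.68 on the log2 scale (SE 0.24; adjusted p = 0.0351 in edgeR). The call was lost without dwarf 4 h replicate 1 or 3 or dwarf 6 d replicate 1 or 2, with edgeR adjusted p between 0.0894 and 0.235 and a change of -0.37 without dwarf 6 d replicate 1. Tall leaves had their highest ERF1 values at 0 h (484, 332 and 378 FPKM), and at 4 h stood at 327, 269 and 259 FPKM. At 4 h every tall library was thus below the tall 0 h mean and every dwarf library above the dwarf 0 h mean.

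NAC83, whose Arabidopsis counterpart acts in leaf ageing and salt response, was the steadiest of the 15. Its group means ran from 262 to 392 FPKM, a 1.50-fold span, with the lowest mean in the dwarf at 0 h (254, 309 and 223 FPKM) and the highest in the dwarf at 4 h (370, 484 and 322 FPKM). These libraries did not overlap, but the fitted change of 0.50 (SE 0.25) had an edgeR adjusted p of 0.202. No dwarf comparison called NAC83.

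Homeobox genes make up 5 of the 15. HOX6, an HD-Zip gene, differed most between the varieties in favour of the tall. At 0 h it read 192, 131 and 73.5 FPKM in the tall and 48.9, 29.5 and 36.5 FPKM in the dwarf, a 3.45-fold difference between means with no overlap. The varieties stood apart in the same direction at 6 days (58.4, 49.4 and 27.2 FPKM against 16.6, 14.8 and 19.2) and at 10 days (154 and 133 FPKM against 53.1 and 75.4), and overlapped at 4 h. The tall values took part in the choice of genes, so this gap has no test. In both varieties HOX6 was lowest at 6 days and highest, by mean, at 10 days.

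In the dwarf, HOX6 rose at 10 days against 0 h by 1.55 on the log2 scale (SE 0.44; adjusted p = 0.0393 in edgeR), while the log2 ratio of mean FPKM was 0.75. This call depended on the processing: it was lost without the flow cell term (1.05, edgeR adjusted p = 0.076), in the fit of dwarf libraries alone (0.093), with limma on log2(FPKM + 1) (0.0881), and on leaving out any single dwarf library of 0 h or 10 days, dwarf 4 h replicate 1 or 3, tall 0 h replicate 1, tall 4 h replicate 3 or tall 6 d replicate 3, with edgeR adjusted p of 0.0507 to 0.183. HOX6 had 28 to 144 counts in the dwarf libraries.

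HOX20 (CN01_scaffold008389G000010), the second HD-Zip gene, had dwarf values of 275, 679 and 353 FPKM at 0 h, 427, 334 and 312 at 4 h, 496, 579 and 442 at 6 days, and 541 and 613 at 10 days. Replicate 2 of 0 h stood above every other dwarf library, so the 0 h group overlapped with all others, and 4 h and 6 days did not overlap. From 4 h to 6 days HOX20 rose by 0.83 on the log2 scale (SE 0.27; adjusted p = 0.023 in edgeR). The call was lost with limma on log2(FPKM + 1), where HOX20 changed by 0.50 with an adjusted p of 0.129, with flow cell AV alone (0.19), with the dwarf libraries alone (0.0712), and without dwarf 4 h replicate 2 or 3 or dwarf 6 d replicate 1 or 2 (0.0693 to 0.0927 by edgeR). Without dwarf 0 h replicate 2, HOX20 was also called higher at 6 days and at 10 days against 0 h, by 0.92 and 1.07, beside 0.43 and 0.59 with all libraries and 0.18 and 0.33 without dwarf 0 h replicate 1, none of which passed. In the tall HOX20 stood at 372, 453 and 280 FPKM at 0 h and at 743, 731 and 603 FPKM at 6 days, with no overlap.

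BEL1 genes encode BELL homeodomain proteins, partners of KNOX proteins in plant development. Those of this list were called in no dwarf comparison by edgeR with the flow cell term, while limma on log2(FPKM + 1) called both fragments lower at 6 days than at 4 h, by 0.60 and 0.59 on that scale with its drift. The complete copy on chromosome 10 had dwarf values of 198, 121 and 144 FPKM at 0 h, 83.7, 103 and 136 at 4 h, 75.2, 65.0 and 114 at 6 days, and 65.5 and 53.6 at 10 days. Its 0 h libraries lay above all of 6 days and 10 days, beside 30.0% and 42.7% of all genes lower without overlap at these times. The fitted change at 10 days was -0.95 (SE 0.38) with an adjusted p of 0.131 by edgeR, which passed without the flow cell term (-1.06, adjusted p = 0.0304). Tall leaves had 147, 116 and 253 FPKM at 0 h and 47.3, 56.2 and 69.3 FPKM at 6 days, without overlap.

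A second pair of BEL1 entries sits side by side on chromosome 9, at chr9:41110560-41111099 (CN01_09G003330, 540 coding bases) and chr9:41111208-41114042 (CN01_09G003340, 900 coding bases), with 108 bases between them. Both are annotated as fragments with the same product, and both have the same closest rice gene as the copy on chromosome 10. By mean they were the most abundant homeobox entries at 0 h: the shorter one read 1175, 1093 and 1358 FPKM in the dwarf at 0 h and the longer one 574, 499.7 and 675 FPKM. Across the 22 libraries the shorter fragment had 2.01 to 2.51 times the FPKM of the longer, with a median of 2.23, while the shorter one ranged from 671 to 1869 FPKM. The fragments thus went up and down together, and count as 14 loci with the rest if they are pieces of 1 gene, which the files do not say.

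**Figure D3:**
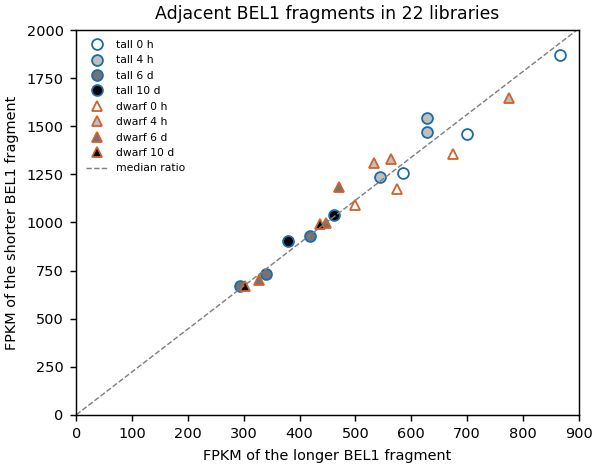
FPKM of the shorter BEL1 fragment (vertical axis) against that of the longer (horizontal axis) in 22 libraries, 1 point each, with shape for variety, fill for time and a dashed line at the median ratio of 2.23. Points follow the line from the 6 days and 10 days libraries at the lower left to tall 0 h replicate 3 at the upper right.

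In the tall the shorter fragment fell in 2 ranges, 1234 to 1869 FPKM at 0 h and 4 h and 671 to 1039 FPKM at 6 days and 10 days. In the dwarf it read 1330, 1308 and 1648 FPKM at 4 h, 999.7, 701 and 1184 at 6 days, and 992 and 671 at 10 days. Against 0 h the log2 ratios of mean FPKM were -0.33 (shorter) and -0.49 (longer) at 6 days and -0.54 and -0.66 at 10 days, beside -0.31 and -0.35 for the median gene. The fitted changes of both fragments against 0 h lay between -0.11 and 0.32 with edgeR adjusted p from 0.351 to 0.935.

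The FCS-like zinc finger 3 genes are a duplicate pair in the study's list of paralogues, with the same closest rice gene, at chr10:7022744-7023311 (CN01_10G003130, 327 coding bases) and chr7:11632848-11633387 (CN01_07G004490, 309 coding bases). From 4 h to 6 days in the dwarf they moved in opposite directions. In the dwarf the chromosome 10 copy read 155, 188 and 125 FPKM at 0 h, 176, 283 and 279 at 4 h, 89.6, 81.6 and 116 at 6 days, and 67.8 and 62.3 at 10 days. The chromosome 7 copy read 442, 542 and 480 FPKM at 0 h, 190, 388 and 240 at 4 h, 584, 626 and 602 at 6 days, and 672 and 545 at 10 days. The 4 h libraries of the chromosome 7 copy lay below all its other dwarf libraries, and those of the chromosome 10 copy above all the later ones.

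The chromosome 7 copy fell at 4 h against 0 h by 1.21 on the log2 scale (SE 0.24; adjusted p = 0.00343 in edgeR) and rose from 4 h to 6 days by 1.50 (SE 0.22; adjusted p = 6.46e-05 in edgeR). It was the only 1 of the 15 called at 4 h. Its call at 4 h was lost among 32 alternatives only with the dwarf libraries alone, where FLZ3 chr7 had a change of -0.97 with an edgeR adjusted p of 0.0949. The chromosome 10 copy had a fitted change of 0.89 (SE 0.30) at 4 h against 0 h, with an adjusted p of 0.0564 by edgeR and 0.0363 by DESeq2, and fell from 4 h to 6 days by 1.02 (SE 0.28; adjusted p = 0.00787 in edgeR). This last call was lost without dwarf 6 d replicate 1 (-0.84, edgeR adjusted p = 0.0559) and with flow cell AV alone (0.0549).

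**Figure D4:**
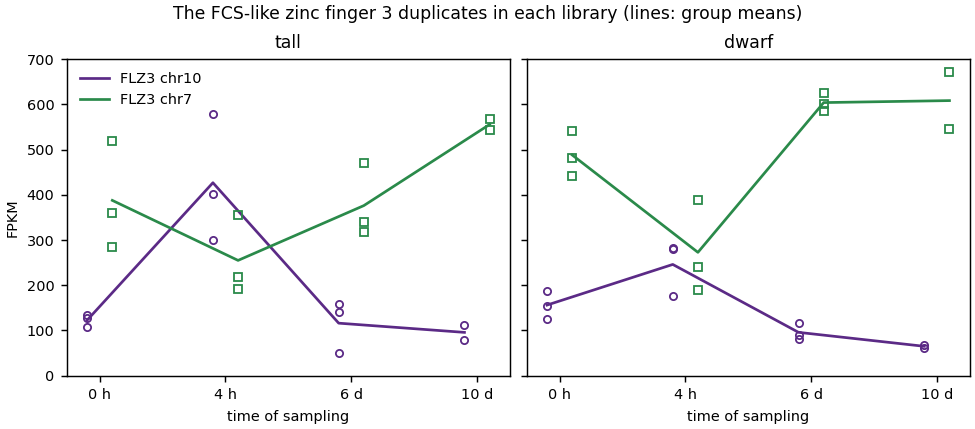
FPKM of the FLZ3 duplicates (vertical axis) at the 4 sampling times in tall (left) and dwarf (right), with 1 point per library and lines through the group means. At 4 h the lines cross in the tall and approach each other in the dwarf, and at 10 days the chromosome 7 copy is above the chromosome 10 copy in every library.

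The ratio of the copies changed with time, and by group mean their order was reversed only in the tall at 4 h. In the dwarf the chromosome 7 copy had 2.85 to 3.84 times the FPKM of the other at 0 h, 0.86 to 1.37 times at 4 h, 5.17 to 7.67 times at 6 days and 8.75 to 9.91 times at 10 days, with no overlap between any of these times. In the tall the same ratio was 2.66 to 4.07 at 0 h, 0.38 to 1.18 at 4 h, 2.02 to 9.35 at 6 days and 5.05 to 6.86 at 10 days. The chromosome 10 copy in the tall read 107, 127 and 134 FPKM at 0 h and 402, 578 and 300 FPKM at 4 h, its highest values of the series. Expected counts of both copies held fractions, which arise where a read fits more than 1 gene, so reads shared between the copies are an uncertainty of each level.

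VAR3 followed a 4 h peak with a narrow spread. In the tall it read 50.5, 64.2 and 56.8 FPKM at 0 h, 117, 123 and 130 at 4 h, 67.9, 66.1 and 65.9 at 6 days, and 57.6 and 55.4 at 10 days. In the dwarf the values were 70.8, 67.1 and 81.0 FPKM at 0 h, 116, 84.4 and 117 at 4 h, 72.3, 65.5 and 68.0 at 6 days, and 64.8 and 79.6 at 10 days. In both varieties the 4 h libraries were above every other library of the variety. The dwarf change at 4 h was 0.49 (SE 0.16) with an adjusted p of 0.0559 by edgeR, and it passed with DESeq2 (0.039), with limma on log2(FPKM + 1) (0.0333) and without the flow cell term (0.0262).

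CCCH 49-like had the largest dwarf change against 0 h among the calls. Its dwarf FPKM was 458, 378 and 396 at 0 h, 245, 526 and 242 at 4 h, 1001, 1067 and 1478 at 6 days, and 673 and 661 at 10 days. The 6 days libraries stood above all others, the 10 days pair between them and the rest. CCCH 49-like rose at 6 days against 0 h by 1.60 on the log2 scale (SE 0.28; adjusted p = 0.00451 in edgeR) and against 4 h by 2.15 (SE 0.27; adjusted p = 1.24e-05 in edgeR). Without dwarf 6 d replicate 1 the change against 0 h was 1.56 with an edgeR adjusted p of 0.0525. At 10 days against 0 h it was 0.69 (SE 0.33; adjusted p = 0.202 in edgeR). Without the flow cell term that change was 1.01 with an edgeR adjusted p of 0.025. In the tall the level kept the same order up to 6 days (1077, 971 and 1060 FPKM) but was higher again at 10 days, at 1566 and 1398 FPKM, where the tall mean was 2.22-fold that of the dwarf.

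CCCH 53 was called in no dwarf comparison. Its dwarf libraries were wide apart within a time, with 52.9, 87.7 and 174 FPKM at 6 days, and it read 55.3 and 37.4 FPKM at 10 days, the latter its lowest dwarf value. The fitted change at 10 days was -1.21 (SE 0.47) with an edgeR adjusted p of 0.118. At 10 days the tall read 165 and 137 FPKM, a mean 3.26-fold above that of the dwarf.

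Counts for other DNA-binding genes of the same list are read beside the shares of all genes tested: 7.23% lower at 4 h against 0 h, and 18.0% higher and 18.0% lower at 6 days against 4 h. Of 10 genes with the same words and a pathway entry, 7 rose from 4 h to 6 days, with a median of 1.28. Of 9 clock, CONSTANS-like, GHD7 and heat stress factors, 9 fell at 4 h (median -3.01) and 8 rose from 4 h to 6 days (median 3.96). Of 7 further DNA-binding genes with other names, 3 fell at 4 h and 4 rose from 4 h to 6 days. From 4 h to 6 days the medians of these 3 lists lay between 1.23 and 3.96, beside -0.02 for the 15 genes. No test was made between lists. The lists differ in the expression classes through which the study listed their genes, so nothing is read from this difference. Of 4 genes with an ethylene name, ERF1 and ERF3 among them, 2 rose and 1 fell from 4 h to 6 days.

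At 0 h, 6 of the 15 genes (HOX6, ICE1, ERF1, NAC83 and both CCCH genes) had every tall library above every dwarf library and 1 (VAR3) the reverse, beside 8.44% and 8.13% of all genes. At 10 days 6 were above in the tall and 2 in the dwarf, beside 28.6% and 18.4%. High tall levels took part in the choice of these genes, and nothing is read from these counts.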

How the data were processed

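mRNA of 22 leaf libraries was enriched with oligo(dT) and sequenced as single-end reads by the authors. The expected counts were deposited by the authors, who aligned reads to the gene set with Bowtie and ran RSEM, and the FPKM values in the same tables were made by the authors in that run per coding length, so untranslated regions were not counted. Versions and use of strand are not given in the sources used here. A gene missing from a table was taken as 0. Columns of the authors' own comparisons were not used.

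Expected counts were rounded. The 18840 genes kept by filterByExpr were fitted in edgeR 4.0.16 (R 4.3.3, quasi-likelihood, TMM) with 8 groups of variety and time plus flow cell (11 libraries on AV, 11 on AW), with 13 residual degrees of freedom and a common biological coefficient of variation of 24.0%. Calls took a Benjamini-Hochberg adjusted p under 0.05 over all genes, by two-sided tests. At that limit the flow cell term itself was called for 6 of the 18840 genes. Its part in the changes of single genes was not tested. Alternatives were limma 3.58.1 on log2(FPKM + pseudocount), DESeq2 1.42.0, other filters, scalings and covariates, and leaving out each library. The script was tested on simulated data.

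Same-numbered samples came from the same leaf, per the study's methods, so the numbers pair the samples: deviations from group means correlated within a leaf at 0.24 on average for tall (12 of 15 pairs over 0.1) and at 0.10 for dwarf (8 of 15). Replicate libraries correlated at a Spearman coefficient of 0.926 to 0.965 across genes, and no pair differed by so little as to be 1 library.

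The 15 genes and the comparison lists were chosen with earlier results of these data known. All 15 are named. Fitted dwarf changes are given for all calls and for part of the other changes, some of them as ranges. Not every uncalled change of 0.4 or more is printed. Coordinates come from the reference annotation of ASM812446v1, whose locus numbers matched the positions of all 5355 genes that could be checked.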

Additional observations from a re-analysis of the deposited data

Results flagged for a closer look

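For 3 genes every tall library lay on one side of its 0 h mean and every dwarf library on the other. The share of all genes split in this way was not determined. Whether such splits are common is therefore unknown, and nothing is read from their number. The difference between the varieties was not tested, since tall values took part in the choice of genes. ERF1 at 4 h had a log2 ratio of mean FPKM to 0 h of -0.48 in the tall, with libraries at 0.65 to 0.82 times the 0 h mean, and of 0.46 in the dwarf, with libraries at 1.24 to 1.60 times. NAC83 at 4 h had a log2 ratio of -0.21 in the tall (0.76 to 0.92 times) and of 0.58 in the dwarf (1.23 to 1.85 times). VAR3 at 6 days had a log2 ratio of 0.22 in the tall (1.15 to 1.19 times) and of -0.09 in the dwarf (0.90 to 0.99 times). For VAR3 the contrast is one of FPKM only: with TMM scaling the fitted change was 0.54 in the tall and 0.18 in the dwarf, both above 0. For ERF1 and NAC83 the fitted changes at 4 h kept opposite signs, at -0.45 and 0.58 for ERF1 and at -0.18 and 0.50 for NAC83. Groups of 2 and 3 libraries were not searched for outlying samples.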

How the results depend on the processing

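With the leaf as a replicate block, the 12 calls on the 15 genes were all retained, with counts of 1 (4 h), 2 (6 days) and 1 (10 days) against 0 h and of 8 for 6 days against 4 h, and no further gene was called. Over all genes the block gave 2410, 1372, 1347 and 7134 calls, beside 2457, 1502, 1507 and 6798 without it.

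For the 15 genes, the count at 4 h moved from 1 to 2 without the flow cell term and with limma at either pseudocount (1 or 0.1), to 3 with DESeq2 and with a filter of 50 counts in all libraries of some group, and to 0 with the dwarf libraries alone. At 6 days against 0 h it moved from 2 to 3 without the flow cell term and to 1 with the dwarf libraries alone. At 10 days it moved from 1 to 4 without the flow cell term, to 2 with DESeq2, with no filter and with the filter of 50 counts, and to 0 with limma and with the dwarf libraries alone. Leaving out single libraries gave 1 to 4, 0 to 3, 0 to 3 and 5 to 8 in the 4 comparisons. The lowest counts at 6 days came without dwarf 6 d replicate 1 and the highest at 4 h without dwarf 4 h replicate 2 or dwarf 6 d replicate 1. The cause was not tested.

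Over all genes, counts fell to 618, 484 and 436 against 0 h with the dwarf libraries alone, and to 436 at 4 h against 0 h and 2909 at 6 days against 4 h with flow cell AV alone, where dwarf 4 h and 6 days keep 1 library each, assumed to vary like the other groups. Against 0 h at 6 days and 10 days they were 2773 and 3514 without the flow cell term, 2691 and 2288 with limma at a pseudocount of 1, and 2603 and 2318 at 0.1. On that scale 14.5% and 18.8% of calls were higher, beside 54.7% and 50.4% with TMM, and 25.3% beside 50.0% at 6 days against 4 h. A minimum log2 fold change of 1 left 1423 at 4 h, 812 at 6 days and 3952 between 4 h and 6 days. Leaving out single libraries gave 968 to 2857, 123 to 1808, 81 to 1945 and 5189 to 6888. The lowest of these came without dwarf 4 h replicate 3, dwarf 6 d replicate 1, dwarf 10 d replicate 1 and dwarf 4 h replicate 1.

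Of 1112 values for the 35 dwarf changes of single genes that are printed or at least 0.4 in size, none changed sign, 34 lost a call and 38 gained one. The other 25 changes, none called, gave 793 values, of which 59 changed sign and 7 were called under an alternative. The limits of these results are the 2 or 3 leaves per group, the confounding of flow cell with time in the dwarf at 10 days, and low counts of UNE10 and HOX6. Flow cell AV alone could not be fitted at 10 days.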
